A study of Mus musculus with 6 samples.

Results

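Fatty acid synthesis and the activation of fatty acids were examined through 9 genes of the 44788 listed in the count table of mouse ovaries. The genes were chosen by pathway, with earlier results of these data known, and matched by symbol. Fasn, Acaca and Acly encode the enzymes that make fatty acids in the cytosol, and Acsl1, Acsl3, Acsl4, Acsl5, Acsl6 and Acsbg1 encode acyl-CoA synthetases. Whole ovaries of C57BL/6 J mice aged 8 weeks were compared by RNA-seq between 3 Bnc1+/+ samples, carrying wild-type basonuclin 1, and 3 Bnc1tr/tr samples, homozygous for a germline frameshift deletion that truncates this zinc finger protein in every cell of the animal. According to the methods of the study the deletion, modelled on a human one, was brought in with a targeting vector, and mutants were set against wild-type littermates. The samples are called ovaries here, and nothing in the labels says how many animals each held, so p-values measure the spread between these samples.

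ATP citrate lyase (Acly) cleaves cytosolic citrate into acetyl-CoA, acetyl-CoA carboxylase (Acaca) turns acetyl-CoA into malonyl-CoA, and fatty acid synthase (Fasn) builds palmitate from both. A fatty acid, made in the cell or taken up, must then be joined to coenzyme A by an acyl-CoA synthetase before it can enter triglycerides, phospholipids, cholesteryl esters or oxidation. In the ovary, the luteal cells that follow ovulation hold many lipid droplets and use acetyl-CoA for cholesterol and cholesterol for progesterone.

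Counts per ovary totalled from 25247770 to 34406296, and the 9 genes took 0.304% to 0.350% of all counts in Bnc1+/+ and 0.218% to 0.239% in Bnc1tr/tr. Rn18s-rs5, a ribosomal RNA gene, took 3.47% in Bnc1+/+ replicate 1 against 0.463% to 1.37% in the other 5 ovaries, and the 10 highest genes of each ovary took 5.16% to 8.11% in Bnc1+/+ and 4.51% to 4.83% in Bnc1tr/tr. Without Bnc1+/+ replicate 1, Acly and Acsl4 still passed (edgeR Benjamini-Hochberg adjusted p = 0.0298 and 0.0401) and Acsbg1 did not (0.0717). Bnc1 itself was covered by 375, 444 and 381 reads in the Bnc1+/+ ovaries and by 527, 355 and 326 in the mutants. Those counts overlap, and since a short frameshift deletion leaves most of a transcript in place they check neither label. The summed level of 12 corpus luteum markers was 24005, 28709 and 27657 CPM (a gene's share of all counts of its library, scaled by TMM) in Bnc1+/+ replicates 1, 4 and 7 and 7515, 13140 and 11518 CPM in Bnc1tr/tr replicates 1, 2 and 3, with 8 markers lower by the test given later, none higher and none at 0. Values are given in this order of replicates throughout. Most of the luteal sum came from Cyp11a1 and from Hsd3b1, which measured 8044, 9027 and 8220 CPM in Bnc1+/+ and 3951, 5801 and 5591 CPM in Bnc1tr/tr. The luteal markers Akr1c18, Parm1, Fdx1 and Tnfrsf21 did not pass (edgeR Benjamini-Hochberg adjusted p = 0.647, 0.58, 0.132 and 0.259). The summed level of 12 adipocyte markers was uneven within both genotypes, at 72.0, 21.0 and 135 CPM in Bnc1+/+ and 537, 356 and 46.6 CPM in Bnc1tr/tr. Oviduct markers stood apart in Bnc1tr/tr replicate 3, at 542 CPM against 12.4 to 154 CPM in the other 5 ovaries. Summed granulosa, theca, oocyte and macrophage markers overlapped between genotypes. Yet 1 granulosa marker (Amh), 1 adipocyte marker (Plin1) and 3 oocyte markers (Gdf9, Bmp15 and Oosp1) were higher (edgeR Benjamini-Hochberg adjusted p from 0.0204 to 0.0458). Lhcgr, in both the theca and luteal lists, was lower, with a log2 fold change of -3.007. The sum of stromal, muscle and endothelial markers overlapped too. Within that last list all 3 endothelial markers were lower with no overlap. Pecam1 had a log2 fold change of -0.85, Cdh5 of -0.73 and Kdr of -0.65 (edgeR Benjamini-Hochberg adjusted p = 0.00874, 0.0248 and 0.00634). The stromal Dcn and Lum had 0.75 and 1.005 and did not pass (0.113 and 0.07). Col1a1 had 0.04, Acta2 -0.03, Myh11 0.13 and Des 0.69, and none passed (0.923, 0.866, 0.546 and 0.124). The part of endothelial RNA in the falls of the members was not tested.

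The promoters of 4 genes are shown because Acly, Acsl4 and Acsbg1 were the members that changed, while Fasn, which follows Acly in the same pathway, did not pass the test. Each stretch is the 250 bases before the RefSeq start site on GRCm38.p6, written 5′ to 3′ on the strand of the gene. Capitals mark matches to the motifs searched on both strands, which in these 4 stretches were the GC box (GGGCGG, the letters bound by Sp1-like factors) and the NF-Y box (CCAAT). The stretches lie at chr11:100528001-100528250 (Acly), chrX:142390536-142390785 (Acsl4), chr9:54661886-54662135 (Acsbg1) and chr11:120824548-120824797 (Fasn), all on the minus strand.
Acly: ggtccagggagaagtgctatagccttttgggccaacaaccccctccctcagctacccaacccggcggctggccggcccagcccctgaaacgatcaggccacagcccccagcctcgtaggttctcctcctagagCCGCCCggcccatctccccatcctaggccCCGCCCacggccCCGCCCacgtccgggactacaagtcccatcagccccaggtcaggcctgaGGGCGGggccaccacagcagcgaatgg
Acsl4: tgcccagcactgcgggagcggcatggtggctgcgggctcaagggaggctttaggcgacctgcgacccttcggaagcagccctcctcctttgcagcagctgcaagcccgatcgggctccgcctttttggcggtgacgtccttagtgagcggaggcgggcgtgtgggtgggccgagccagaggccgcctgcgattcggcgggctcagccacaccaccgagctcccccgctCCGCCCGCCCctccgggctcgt
Acsbg1: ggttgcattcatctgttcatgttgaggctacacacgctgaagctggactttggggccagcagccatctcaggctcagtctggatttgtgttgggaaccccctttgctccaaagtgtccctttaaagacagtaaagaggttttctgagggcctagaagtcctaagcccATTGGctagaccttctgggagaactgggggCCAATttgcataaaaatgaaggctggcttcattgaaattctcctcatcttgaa
Fasn: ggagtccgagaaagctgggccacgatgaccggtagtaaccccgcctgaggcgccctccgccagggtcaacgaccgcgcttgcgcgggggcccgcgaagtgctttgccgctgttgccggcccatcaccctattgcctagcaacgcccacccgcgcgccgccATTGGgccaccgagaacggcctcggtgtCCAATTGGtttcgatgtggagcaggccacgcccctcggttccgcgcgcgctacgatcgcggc

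The stretch before Acly held 4 GC boxes and that before Acsl4 held 2, which overlap each other. The stretch before Acsbg1 held 2 NF-Y boxes and that before Fasn held 3, the last 2 of which overlap. Of the 32851 RefSeq promoters cut to the same length, 32.74% held a GC box and 33.85% an NF-Y box. All 9 genes matched RefSeq, with 12 start sites, of which 7 had a GC box and 7 an NF-Y box. For 11 of the 12, the bases after the start site were found in an annotated transcript. The only stretches of Acaca (chr11:84195188-84195437) and Acsl5 (chr19:55253119-55253368) lie inside the annotated genes. For these genes the stretch before the first annotated base was not searched. The sterol response letters TCACNCCAC were found before 1 of the 12, a start site of Acsl1, and in 1.05% of all promoters. The steroidogenic factor letters CAAGGTCA were found before 1, a start site of Acsl6, and in 1.33% of all promoters. The E-box CACGTG, the cAMP response element TGACGTCA and the TATA box TATAAA were before none of the 12, against 6.02%, 1.55% and 12.37% of all promoters. The motif matches therefore differed among the 3 genes that fell, and a match is only a description of letters.

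All 9 members passed the filter on low counts. By the quasi-likelihood test of edgeR, Benjamini-Hochberg adjusted over the 19423 genes tested, 3 members were lower in Bnc1tr/tr at an adjusted p under 0.05 (Acly, Acsl4 and Acsbg1), none was higher and 6 did not pass. Over all genes tested 7.06% were called, 4.19% lower and 2.88% higher. Before adjustment, 6 members were lower and 1 higher at p under 0.05, against 12.3% and 11.9% of all genes. By DESeq2, which called 12.5% of all genes, 4 members were lower and 1 higher, and by limma-voom, which called 6.71%, 3 were lower and none higher. The ovaries of the genotypes did not overlap for 6 members that were lower in Bnc1tr/tr and 2 that were higher, against 15.8% and 15.0% of all genes tested. The median log2 fold change was -0.37 over the members and 0.02 over all genes tested. Because the members were chosen with earlier results of these data known, the shares over all genes are a background and not a test of the set.

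**Figure D1:**
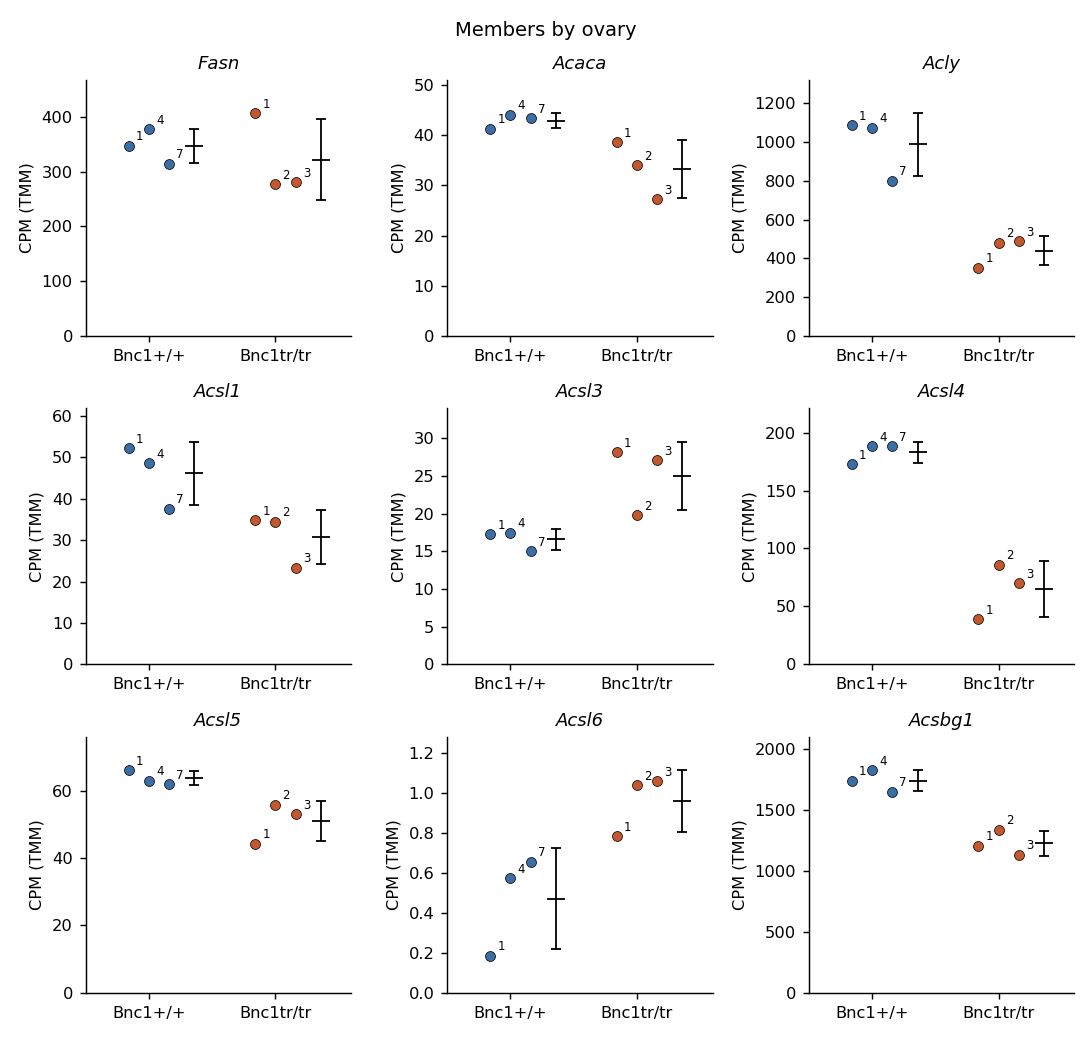
CPM of each member (vertical axes from 0, scaled by TMM) in the 3 Bnc1+/+ ovaries (blue) and the 3 Bnc1tr/tr ovaries (orange), with replicate numbers beside the points and the mean and SD in black. Acly and Acsl4 separate widely, from 353 to 488 against 802 to 1089 CPM and from 39.1 to 86.1 against 173 to 188 CPM, while Fasn overlaps.

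Acly (chr11:100476353-100528000, minus strand, GRCm38), the first enzyme of the synthesis, measured 1089, 1075 and 802 CPM in Bnc1+/+ and 353, 482 and 488 CPM in Bnc1tr/tr. The lowest Bnc1+/+ ovary was well above the highest Bnc1tr/tr ovary. The fall was from a mean of 989 ± 162 CPM (SD, n = 3) to 441 ± 76.4 CPM, and the log2 fold change was -1.17 (SE 0.17, 95% interval -1.56 to -0.77) with an edgeR Benjamini-Hochberg adjusted p of 0.00861. Without Bnc1+/+ replicate 4 the adjusted p was 0.058. Per 1000 CPM of the summed luteal markers, a ratio chosen after the values were seen, Acly was at 45.4, 37.4 and 29.0 CPM in Bnc1+/+ and 46.9, 36.7 and 42.3 CPM in Bnc1tr/tr, so that on this scale the genotypes overlapped. In whole ovaries, fewer cells of a type and less RNA per cell cannot be told apart.

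Acaca (chr11:84129672-84401651, plus strand) measured 41.3, 44.1 and 43.4 CPM in Bnc1+/+ and 38.7, 33.99 and 27.2 CPM in Bnc1tr/tr. All Bnc1tr/tr ovaries were below all Bnc1+/+ ovaries, though replicate 1 only narrowly. The log2 fold change of -0.37 (SE 0.13, 95% interval -0.67 to -0.07) did not pass in edgeR (Benjamini-Hochberg adjusted p = 0.134).

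Fasn (chr11:120805846-120824547, minus strand) measured 347, 377 and 315 CPM in Bnc1+/+ and 407, 277 and 281 CPM in Bnc1tr/tr. Bnc1tr/tr replicate 1 was the highest of all 6 ovaries and replicates 2 and 3 the lowest. The log2 fold change was -0.11 (SE 0.16, 95% interval -0.48 to 0.27, edgeR Benjamini-Hochberg adjusted p = 0.726), an interval that leaves room for a change in either direction. Bnc1tr/tr replicate 1 also had the highest summed adipocyte markers, but replicate 2, with the next highest, had the lowest Fasn. The part of adipocyte RNA in the level of Fasn, a gene that fat cells use heavily, was not tested.

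The balance between the first and last enzyme of the pathway thus differed by ovary. Acly stood at 3.13, 2.85 and 2.55 times the CPM of Fasn in Bnc1+/+ and at 0.867, 1.74 and 1.74 times in Bnc1tr/tr, with no overlap. Acaca stood at 0.119, 0.117 and 0.138 times the CPM of Fasn in Bnc1+/+ and at 0.0951, 0.123 and 0.0969 times in Bnc1tr/tr, where the ranges met. These ratios were described and not tested.

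Acsl4 (chrX:142317993-142390535, minus strand), the synthetase that prefers arachidonic acid and other polyunsaturated fatty acids and is known for its part in steroid-producing cells and in ferroptosis, showed the largest fall of the 9. It measured 173, 188 and 188 CPM in Bnc1+/+ and 39.1, 86.1 and 70.2 CPM in Bnc1tr/tr. The Bnc1+/+ ovaries lay close together, and the Bnc1tr/tr ovaries were lower and more spread, with replicate 1 the lowest. The mean of 183 ± 9.06 CPM (SD, n = 3) dropped to 65.1 ± 23.9 CPM, with a log2 fold change of -1.49 (SE 0.25, 95% interval -2.08 to -0.91, edgeR Benjamini-Hochberg adjusted p = 0.0153). The adjusted p was 0.0844 without Bnc1+/+ replicate 4 and 0.0635 without replicate 7.

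The 5 genes whose centred log2 CPM over the 6 ovaries lay nearest to that of Acsl4, by root mean square distance, were Prlr (0.0416), Cyp11a1 (0.0639), Avpi1 (0.0913), Cited4 (0.109) and Idh1 (0.127). Prlr, the prolactin receptor, measured 329, 347 and 361 CPM in Bnc1+/+ and 79.0, 163 and 138 CPM in Bnc1tr/tr. Cyp11a1, which cleaves the side chain of cholesterol, measured 9054, 10627 and 10793 CPM and then 1975, 4823 and 3843 CPM. Both were among the 12 luteal markers. In both, Bnc1tr/tr replicate 1 was the lowest ovary and replicate 2 the highest of its genotype, as for Acsl4. This likeness follows from choosing the nearest profiles over the same 6 ovaries and is no further evidence. Acly was the 112th nearest gene (0.329), Acsbg1 the 1338th (0.622), and Acsl3 lay at 1.18. Per 1000 CPM of summed luteal markers, Acsl4 was at 7.19, 6.56 and 6.81 CPM in Bnc1+/+ and 5.20, 6.55 and 6.09 CPM in Bnc1tr/tr, which is a far smaller separation than that of its CPM. That sum includes Prlr and Cyp11a1, and Cyp11a1 is a large part of it. The part of the luteal markers in the fall of Acsl4 was not tested.

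**Figure D2:**
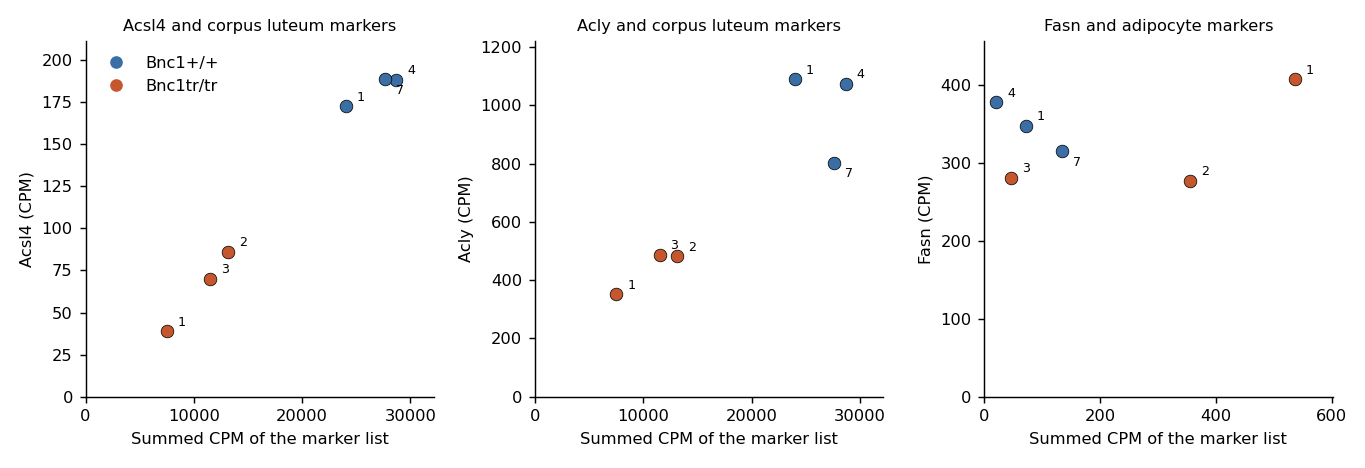
Level of Acsl4, Acly or Fasn (vertical axis, CPM) against the summed CPM of a marker list (horizontal axis) in each of the 6 ovaries, with replicate numbers; both axes start at 0 and no line is fitted. Acsl4 and Acly are high in the Bnc1+/+ ovaries, whose luteal sum is 24005 CPM or more, and Fasn is spread from 277 to 407 CPM over adipocyte sums of 21.0 to 537 CPM.

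Acsbg1 (chr9:54604877-54661870, minus strand), a bubblegum-family synthetase that acts on long and very long chains, measured 1739, 1824 and 1649 CPM in Bnc1+/+ and 1205, 1337 and 1132 CPM in Bnc1tr/tr. Neither genotype spread widely, and there was a clear gap between them. Means were 1737 ± 87.6 CPM (SD, n = 3) and 1224 ± 104 CPM, and the log2 fold change was -0.50 (SE 0.10, 95% interval -0.74 to -0.27, edgeR Benjamini-Hochberg adjusted p = 0.0284). The call was lost when any one ovary other than Bnc1tr/tr replicate 2 was left out, with adjusted p from 0.0535 to 0.122 over those 5 fits. Per 1000 CPM of summed luteal markers the order turned, at 72.4, 63.5 and 59.6 CPM in Bnc1+/+ and 160, 102 and 98.3 CPM in Bnc1tr/tr. Acsbg1 was thus lower in CPM and higher relative to these markers. This was not particular to Acsbg1, since the marker sum itself was lower in Bnc1tr/tr. The same ratio was higher with no overlap for Fasn, Acaca, Acsl3, Acsl5 and Acsl6, and for Acsl1 the genotypes overlapped.

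Acsl1 (chr8:46471037-46536051, plus strand), the synthetase of fat, liver and heart, measured 52.3, 48.6 and 37.6 CPM in Bnc1+/+ and 34.9, 34.4 and 23.3 CPM in Bnc1tr/tr. The genotypes did not overlap, but the gap between Bnc1+/+ replicate 7 and the highest Bnc1tr/tr ovary was small. Its log2 fold change of -0.58 (SE 0.18) did not pass in edgeR (Benjamini-Hochberg adjusted p = 0.102) and passed in DESeq2 (adjusted p = 0.0297). The exons of Acsl1 share 1039 bases (9.91%) with Gm45244, an annotated transcript on the opposite strand that has no row in the count table, so some of its reads may be counted here. Acsl5 (chr19:55251938-55297720, plus strand), known from the intestine and mitochondria, measured 66.1, 62.9 and 61.9 CPM in Bnc1+/+ and 44.2, 55.8 and 52.9 CPM in Bnc1tr/tr. Again all Bnc1tr/tr ovaries were lower, and the log2 fold change of -0.32 (SE 0.10) did not pass (edgeR Benjamini-Hochberg adjusted p = 0.105). The exons of Acsl5 share 404 bases (8.31%) with Zdhhc6 on the opposite strand, and the counting is not stated to use strand, so their reads may be mixed. Zdhhc6 had 1284 to 1695 counts per ovary and Acsl5 had 1242 to 2083.

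Acsl3 (chr1:78657825-78707743, plus strand), an enzyme of the endoplasmic reticulum and of growing lipid droplets, had the opposite direction. It measured 17.2, 17.5 and 15.0 CPM in Bnc1+/+ and 28.1, 19.8 and 27.1 CPM in Bnc1tr/tr. All Bnc1tr/tr ovaries were higher, replicate 2 only slightly. The log2 fold change of 0.59 (SE 0.15, 95% interval 0.25 to 0.94) just missed the threshold in edgeR (Benjamini-Hochberg adjusted p = 0.0566). It passed in DESeq2 (adjusted p = 0.00864) and in edgeR without Bnc1tr/tr replicate 2 (adjusted p = 0.0189). Summed oocyte markers were 1079, 1016 and 854 CPM in Bnc1+/+ and 1577, 1034 and 1531 CPM in Bnc1tr/tr, also with replicate 2 the lowest of its genotype. Summed granulosa markers had the same order in Bnc1tr/tr, at 7021, 4375 and 5989 CPM, against 4445, 5220 and 4136 CPM in Bnc1+/+. The part of either list in the level of Acsl3 was not tested. Acsl3 shares 244 exon bases, 5.60% of its exons, with Utp14b on the same strand. Utp14b had 68, 88 and 55 counts in Bnc1+/+ and 117, 88 and 133 counts in Bnc1tr/tr. Acsl3 had 464, 578 and 436 counts and then 791, 514 and 769 counts. The part of shared reads in the level of Acsl3 was not tested.

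Acsl6 (chr11:54303798-54364756, plus strand), the synthetase of brain known for docosahexaenoic acid, was close to the detection limit, with 5, 19 and 19 counts in Bnc1+/+ and 22, 27 and 30 counts in Bnc1tr/tr. This was 0.186, 0.574 and 0.655 CPM and then 0.782, 1.04 and 1.06 CPM, with no overlap. The log2 fold change of 1.003 had a wide error (SE 0.43) and did not pass (edgeR Benjamini-Hochberg adjusted p = 0.207).

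Per length of exon, the members spanned a wide range of levels. In Bnc1+/+ the order of mean CPM per kilobase was Acsbg1 (482), Acly (187), Acsl4 (33.9), Fasn (31.6), Acsl5 (13.1), Acsl1 (4.40), Acsl3 (3.81), Acaca (2.52) and Acsl6 (0.0476). Neighbours overlapped between their ovaries for Acsl4 with Fasn and for Acsl1 with Acsl3. In Bnc1tr/tr the order was Acsbg1 (340), Acly (83.5), Fasn (29.4), Acsl4 (12.05), Acsl5 (10.48), Acsl3 (5.74), Acsl1 (2.94), Acaca (1.95) and Acsl6 (0.0968), with overlap for Acsl4 with Acsl5 and for Acsl1 with Acaca. Fasn had thus passed Acsl4, and on this length Acsl3 had passed Acsl1. With the longest coding transcript as the gene length, Acsl1 stayed above Acsl3 in Bnc1tr/tr and Acaca (4.51) stood above Acsl3 (4.198) in Bnc1+/+. That length raised the Bnc1+/+ level of Acsl1 from 4.40 to 11.8 and of Acaca from 2.52 to 4.51 CPM per kilobase.

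The make-up of the Acsl family shifted with these levels. Acsl4 held 58.6%, 61.7% and 63.7% of the summed CPM per kilobase of Acsl1, Acsl3, Acsl4, Acsl5 and Acsl6 in Bnc1+/+, and 27.6%, 45.1% and 40.1% in Bnc1tr/tr. Its share was higher in every Bnc1+/+ ovary than in any Bnc1tr/tr ovary. With the longest coding transcript as the gene length the shares were lower, at 49.5%, 52.8% and 55.9% in Bnc1+/+ against 21.7%, 37.5% and 34.3% in Bnc1tr/tr, again with no overlap. Acsl5 went from 24.9%, 22.9% and 23.3% to 34.7%, 32.5% and 33.6%, and Acsl3 from 7.27%, 7.10% and 6.31% to 24.7%, 12.9% and 19.2%. Shares must sum to the whole, so a larger share of Acsl5 stands beside a lower CPM of the same gene. Acsl4 stood at 10.01, 10.8 and 12.5 times the CPM of Acsl3 in Bnc1+/+ and at 1.39, 4.35 and 2.59 times in Bnc1tr/tr.

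**Figure D3:**
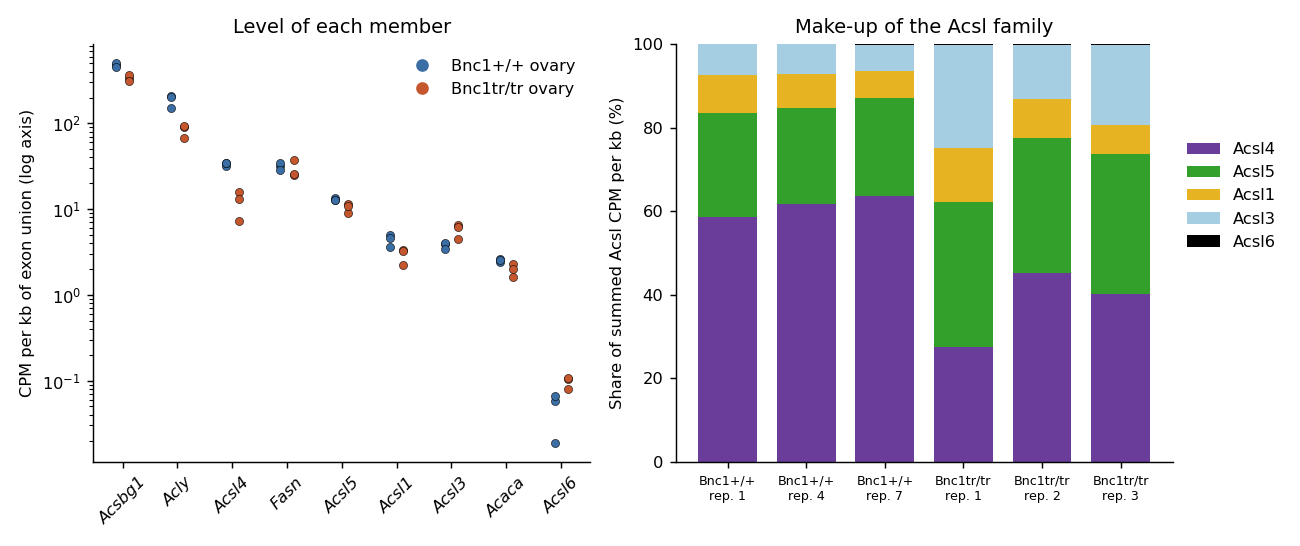
Left, CPM per kilobase of exon for each member (log axis) in Bnc1+/+ (blue) and Bnc1tr/tr (orange) ovaries; right, the share (%) of each gene in the summed Acsl level per ovary. Acsbg1 and Acly lead in both genotypes, and the Acsl4 share goes from 58.6% or more in Bnc1+/+ to 45.1% or less in Bnc1tr/tr.

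Around the 9 members, 5 lists of pathway genes held 62 symbols, of which 54 passed the filter, 7 were lower, 3 were higher and 44 were not called, beside 4.19% lower and 2.88% higher over all genes tested. Their median log2 fold change was -0.06. Among the 15 genes that supply or control fatty acid synthesis, 3 were lower and 1 was higher, against the same 4.19% and 2.88%. Acss2, which makes acetyl-CoA from acetate, measured 58.6, 60.0 and 62.8 CPM in Bnc1+/+ and 27.1, 30.6 and 30.9 CPM in Bnc1tr/tr (log2 fold change -1.03, SE 0.09, edgeR Benjamini-Hochberg adjusted p = 0.0017). Its genotypes were tight and far apart. Slc25a1, the carrier that exports citrate from mitochondria to Acly, measured 141, 152 and 131 CPM and then 88.6, 101 and 87.5 CPM (log2 fold change -0.61, SE 0.10, edgeR adjusted p = 0.0113). Idh1, which makes cytosolic NADPH, measured 1538, 1775 and 1804 CPM and then 387, 804 and 825 CPM (log2 fold change -1.34, SE 0.27, edgeR adjusted p = 0.0283).

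Acacb, the carboxylase at the outer mitochondrial membrane whose malonyl-CoA restrains fatty acid oxidation, went the other way. It measured 71.0, 65.3 and 68.0 CPM in Bnc1+/+ and 106, 88.5 and 92.4 CPM in Bnc1tr/tr (log2 fold change 0.49, SE 0.09, edgeR Benjamini-Hochberg adjusted p = 0.0228). Its CPM stood at 1.72, 1.48 and 1.57 times that of Acaca in Bnc1+/+ and at 2.73, 2.60 and 3.40 times in Bnc1tr/tr. The calls of Idh1, Slc25a1 and Acacb were lost without Bnc1+/+ replicate 4, at adjusted p of 0.122, 0.0706 and 0.117, those of Idh1 and Acacb also without replicate 1 (0.0574 and 0.0557) or replicate 7 (0.0977 and 0.0809), and that of Acacb without Bnc1tr/tr replicate 3 (0.0593).

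No call was made among the 9 genes of mitochondrial fatty acid synthesis by edgeR, with 4 lower and 1 higher at an unadjusted p under 0.05 (12.3% and 11.9% of all genes), none lower and 1 higher by DESeq2 (12.5% of all genes in either direction), and none by limma-voom (6.71%). Mecr, the reductase of that pathway and the highest of them in mean CPM, had a log2 fold change of -0.30 (SE 0.09, edgeR Benjamini-Hochberg adjusted p = 0.0903).

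Of 16 other acyl-CoA synthetases 10 were tested, 2 were lower and none was higher (4.19% and 2.88% of all genes), with none higher by DESeq2, by limma-voom or at an unadjusted p under 0.05. Slc27a4, a fatty acid transport protein with synthetase activity, measured 183, 182 and 127 CPM in Bnc1+/+ and 71.5, 83.2 and 77.7 CPM in Bnc1tr/tr (log2 fold change -1.08, SE 0.15, edgeR Benjamini-Hochberg adjusted p = 0.00707). Aacs, which activates acetoacetate for lipid synthesis, measured 61.9, 68.0 and 47.6 CPM and then 36.1, 32.2 and 38.2 CPM (log2 fold change -0.74, SE 0.14, edgeR adjusted p = 0.0246). Its call was lost in 5 of the fits that left out 1 ovary, all but that without Bnc1+/+ replicate 7, with adjusted p from 0.0507 to 0.104. Slc27a1, the highest of the list in mean CPM, measured 314, 306 and 316 CPM and then 305, 346 and 292 CPM. The 95% interval of its log2 fold change was -0.20 to 0.22.

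The thioesterases, which undo the activation by splitting acyl-CoA, had 14 of 15 genes tested, 1 lower and 2 higher (4.19% and 2.88% of all genes), with a median log2 fold change of 0.16. Acot7, a cytosolic long-chain thioesterase, had a log2 fold change of -0.64 (SE 0.15, edgeR Benjamini-Hochberg adjusted p = 0.0469), lost with library size as the only scaling (0.0664) and in all fits without 1 ovary except that without Bnc1tr/tr replicate 3 (0.0774 to 0.182). Olah, the thioesterase that ends synthesis early at medium chains, rose from 1.35 to 3.39 CPM (log2 fold change 1.33, SE 0.28, edgeR adjusted p = 0.0334), and its call was lost in all such fits except that without Bnc1tr/tr replicate 2 (0.0667 to 0.146). Acot5, a peroxisomal thioesterase, had 131, 75 and 127 counts in Bnc1tr/tr against 3, 7 and 8 in Bnc1+/+ (log2 fold change 4.29, SE 0.38, edgeR adjusted p = 0.0018). Acot5 belongs to a cluster of similar genes among which reads may be divided. That division was not tested, so the source of these reads is uncertain.

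Of 7 acyl-CoA-binding proteins 6 were tested and 1 was lower (4.19% of all genes). Acbd5, a peroxisomal membrane protein that holds very long-chain acyl-CoA, measured 49.5, 56.4 and 48.6 CPM in Bnc1+/+ and 29.8, 33.1 and 28.9 CPM in Bnc1tr/tr (log2 fold change -0.75, SE 0.10, edgeR Benjamini-Hochberg adjusted p = 0.00589). Dbi, the general acyl-CoA-binding protein and the highest of the list in mean CPM, measured 154, 155 and 118 CPM and then 97.8, 150 and 130 CPM, which overlapped.

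**Figure D4:**
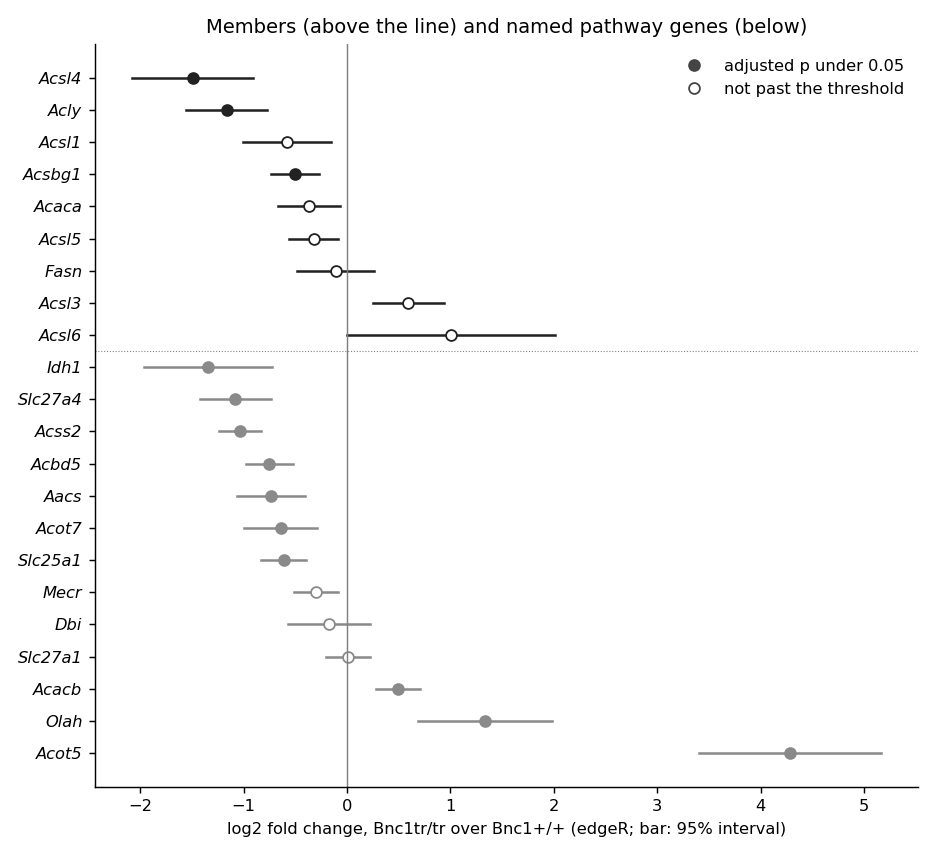
Log2 fold change of Bnc1tr/tr over Bnc1+/+ (horizontal axis) with its 95% interval for the 9 members (black, above the dotted line) and 13 named pathway genes (grey, below), filled where the edgeR adjusted p was under 0.05. Acsl4 (-1.49) and Acly (-1.17) lie farthest left among the members, Acsl3 (0.59) and Acsl6 (1.003) lie to the right without passing, and Acot5 (4.29) is the farthest right.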

How the data were processed

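Ovary RNA-seq of 6 samples was analysed. The authors deposited raw counts, whole reads per gene and ovary without normalization, from Ion Proton libraries. The aligner and the counter are not given in the sources used here, and the submitters' processing notes name the builds mm10 and Sscrofa10.2 with no role. Groups came from the genotype labels, and every count column matched 1 sample title.

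Genes were filtered with filterByExpr (minimum count 10), scaled by TMM and tested two-sided with edgeR 4.0.16 (glmQLFit and glmQLFTest, R 4.3.3) with Benjamini-Hochberg adjustment, a threshold of 0.05 and no covariate; the script was tested on simulated data. DESeq2 1.42.0 and limma 3.58.1 (voom) served as alternatives, with other scalings, filters, a robust fit and each ovary left out. CPM per kilobase used GENCODE M21 exon unions on GRCm38, and promoters came from RefSeq. The profile distance used log2 CPM with a prior count of 2. Depth ran from 25247770 to 34406296 counts per ovary, and low counts limit precision most for Acsl6.

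The text names all members, the called genes (at most 5) and the gene of highest mean CPM of each pathway list, the 5 nearest profiles, and marker sums. That mean CPM was not corrected for gene length. Members and lists were chosen with earlier results of these data known. The gene-length alternative and the ratios to luteal markers were added after the data were seen.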

Additional observations from a re-analysis of the deposited data

How the results depend on the processing

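No member changed direction in any of the 13 alternative fits that tested it (12 for Acsl6). Acly passed the threshold in 12 of the 13, Acsl4 in 11, Acsbg1 in 8, Acsl3 in 4, Acsl1 in 1, and Fasn, Acaca and Acsl5 in 0. Over all genes, edgeR called 1372, DESeq2 2420, edgeR with an absolute log2 fold change over 1 called 648, and leaving out 1 ovary gave 320 to 1282 (fewer samples by construction). Members called lower numbered 3, and 0 to 3 with 1 ovary left out, with 0 without Bnc1+/+ replicate 4 and 1 without replicate 7. Members called higher numbered 0, and 1 (Acsl3) with library size as the only scaling, with no filter and with DESeq2, and 0 to 1 with 1 ovary left out. Genes of the 5 pathway lists called lower numbered 7, 3 with the fold threshold, and 3 to 6 with 1 ovary left out. Those called higher numbered 3, 6 with library size only, 6 with DESeq2, and 1 to 6 with 1 ovary left out. The log2 fold change of Slc27a1, 0.01 in the full fit, ranged over the fits without 1 ovary from -0.066 (Bnc1tr/tr replicate 2) to 0.060 (Bnc1tr/tr replicate 3), was -0.012 without Bnc1+/+ replicate 4, and was 0.11 with library size only. Library size alone moved the median log2 fold change of all genes from 0.02 to 0.12 and the share of calls that were lower from 59.3% to 35.6%. No paired analysis was possible because the labels give no litter and replicate numbers do not define pairs. The cause of these shifts was not tested.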
